A study of Mus musculus with 2 samples.

Results

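ECs, the endothelial cells that line blood vessels, sense and respond to flow and stretch through a set of proteins. The levels of 6 genes of that set were followed in mouse bone: Klf2, Klf4, Nos3, S1pr1, Piezo1 and Piezo2. They were chosen by name from 28380 genes counted in the tables, for their known roles and with earlier results of these data known. All 6 were detected in both libraries. The measurement was single-cell RNA-seq, in which each captured messenger RNA is counted by its unique molecular identifier (UMI). A level is given in CPM, the UMIs of a gene per 1000000 UMIs of a set of cells. A share is the percentage of cells with a UMI of the gene after every cell was thinned to 1000 UMIs.

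The study asked how forced expression of the transcription factor Dach1 in ECs changes the vessels of long bones. Its 2 libraries came from femur and tibia of male and female C57BL/6 mice at postnatal day 30, with 2 mice pooled per library by the methods. Control mice had the genotype Dach1OE +/f, which carries the inducible Dach1 allele without Cre, and Dach1OE mice had Apj CreERT2 - Dach1OE +/f, in which tamoxifen releases a Cre made under the Aplnr (Apj) promoter. Both groups received tamoxifen, and the methods also name an R26-mT/mG reporter. The methods direct the transgene to Aplnr+ ECs, and cells derived from these also carry it. The epiphysis was removed, bones were digested and crushed, and blood cells were depleted by lineage, CD45 and CD117. With 1 library per group no test of Dach1OE against Control is possible: square brackets hold exact 95% intervals for counting error only, and genotype cannot be told apart from other differences between the libraries. Levels in female and male cells, called by Xist and Y-linked genes, are given to describe each library. With only 2 such values per library, a lack of overlap between libraries is no test. How many of all genes lack overlap in this way was not counted.

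After filtering, 8482 and 8825 ECs stood among 26466 Control and 29317 Dach1OE cells, with 139955347 and 162789363 UMIs. ECs were gated by markers, none of them among the 6 genes. In Control and Dach1OE there were 3688 and 920 bone marrow (sinusoidal) bmECs, 1368 and 1839 metaphyseal (type H) mpECs, 380 and 1110 arterial aECs, 456 and 498 remodelling (type R) rECs, 381 and 537 proliferating pECs, 79 and 30 lymphatic cells and 22 and 1802 capillary cells with Scgb3a1, and 2108 and 2089 ECs had no clear subtype. For each subtype the level of a marker that helped to gate it is given, which describes the gate and does not check the name. Stab2 was at 1269 and 1380 CPM in bmECs, Gja5 at 496 and 934 CPM in aECs and Ramp3 at 280.1 and 152 CPM in mpECs. C1qtnf9 was at 306 and 241 CPM in rECs and Mki67 at 459 and 512 CPM in pECs. Prox1 was at 479 and 568 CPM in lymphatic cells and Scgb3a1 at 306 and 1577 CPM in the capillary cells. Dach1 was at 4.65 and 204 CPM in ECs of Control and Dach1OE, 26.5 and 213 CPM in rECs, 3.94 and 177 CPM in mpECs and 8.77 and 232 CPM in aECs. Of the kept cells 879 had a cell index that occurs in both libraries (3.32% of Control and 3.0% of Dach1OE cells).

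Laminar flow acts on ECs through junctional proteins and channels, and a kinase chain that ends in the MEF2 transcription factors switches on Klf2 and Klf4. These zinc-finger factors keep the endothelium quiet and anti-inflammatory. Nos3, endothelial nitric oxide synthase, is a KLF2 target and relaxes vessels. S1pr1 is the receptor for sphingosine-1-phosphate and steadies EC junctions. Piezo1 and Piezo2 are stretch-gated cation channels, Piezo1 being an endothelial flow sensor and Piezo2 best known from touch-sensing neurons.

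In GRCm38 (GENCODE vM21) Klf2 lies at chr8:72319033-72321656 on the plus strand and Klf4 at chr4:55527143-55532466 on the minus strand. Nos3 lies at chr5:24364810-24384474 (plus), S1pr1 at chr3:115710433-115715072 (minus) and Piezo1 at chr8:122481698-122551329 (minus). Intronic reads were counted, and annotated exons cover 70.4% of Klf2 but 4.55% of Piezo2, so levels are compared between cells and not between genes.

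Promoters are printed for Klf2, Klf4 and Piezo1, because the promoter set used held none for Nos3, Piezo2 and S1pr1. Each line runs 5′ to 3′ on the strand of the gene, from 250 bases before to 50 bases after its start, as RefSeq gives it on GRCm38.p6 (chr8:72318812-72319111 for Klf2, chr4:55532426-55532725 for Klf4 and chr8:122551280-122551579 for Piezo1). Capitals mark the GC box GGGCGG on either strand and matches to the consensus of the MEF2 factors, whose motif reads the same on both strands.
Klf2: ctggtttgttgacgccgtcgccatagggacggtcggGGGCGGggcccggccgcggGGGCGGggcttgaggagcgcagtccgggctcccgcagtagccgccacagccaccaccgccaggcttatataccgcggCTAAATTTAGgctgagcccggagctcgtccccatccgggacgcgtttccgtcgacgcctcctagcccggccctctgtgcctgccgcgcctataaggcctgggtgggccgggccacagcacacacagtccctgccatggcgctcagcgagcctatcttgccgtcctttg
Klf4: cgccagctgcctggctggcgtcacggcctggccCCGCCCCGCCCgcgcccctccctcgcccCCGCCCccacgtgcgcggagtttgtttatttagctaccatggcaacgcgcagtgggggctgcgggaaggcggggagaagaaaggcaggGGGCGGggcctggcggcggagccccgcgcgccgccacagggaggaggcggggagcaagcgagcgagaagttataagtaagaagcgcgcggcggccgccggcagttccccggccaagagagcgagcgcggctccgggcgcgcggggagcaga
Piezo1: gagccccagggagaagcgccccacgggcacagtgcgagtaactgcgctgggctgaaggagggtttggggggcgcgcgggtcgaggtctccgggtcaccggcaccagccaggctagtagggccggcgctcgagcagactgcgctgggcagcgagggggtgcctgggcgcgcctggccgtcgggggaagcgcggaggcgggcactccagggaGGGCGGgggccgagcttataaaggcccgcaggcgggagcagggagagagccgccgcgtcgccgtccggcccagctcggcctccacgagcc
The GC box is common, with a match in 35.7% of 32851 promoter windows of this length. It has 2 matches in Klf2, 4 in Klf4 and 1 in Piezo1. The MEF2 consensus matches 3.19% of windows. Klf2 holds 1 match, the capitals beginning at position -118 from the RefSeq start, which differs from the GENCODE start given above. No match was found in the Klf4 or Piezo1 window. The box CACCC, searched on both strands, occurs in 57.5% of windows, with 1 match in Klf2, 1 in Piezo1 and 0 in Klf4. A match describes the letters and does not show binding.

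Klf2 had its highest Control levels in rECs and arteries when the sexes were counted together. It was at 646 CPM [601, 693] in rECs, 574 CPM [533, 618] in aECs, 366 CPM [348, 384] in mpECs, 282 CPM in lymphatic cells, 251 CPM in pECs and 143 CPM [137, 150.0] in bmECs. The intervals of rECs and aECs overlap, and so do those of lymphatic cells and pECs. In thinned Control cells Klf2 was found in 43.5% of aECs, 37.0% of rECs, 24.5% of mpECs and 11.2% of bmECs. For Klf4 the rEC level was 445 CPM [408, 485] and the aEC level 353 CPM [321, 388]. Lymphatic cells (194 CPM), bmECs (147 CPM) and mpECs (139 CPM) overlapped in turn, and pECs were lowest at 97.3 CPM. Against the other Control ECs, the level in rECs was 2.84 times as high for Klf2 and 3.02 times for Klf4, and in aECs 2.50 and 2.34 times. The order differed between the sexes. Female Control cells had Klf2 at 389 CPM in rECs, 393 in mpECs and 560.3 in aECs, and male cells at 782, 322 and 600.4 CPM. For Klf4, female rECs and aECs were level at 313 and 309 CPM, while male ones were at 532 and 337 CPM. The 236 Control rECs with no sex call had Klf2 at 795 CPM and Klf4 at 515 CPM, and without the male cells rECs were at 613 and 424 CPM, against 568 and 357 CPM in aECs. Among Control cells below the median immediate-early share of their subtype, the order turned for both genes, with Klf2 at 441 CPM in rECs and 486 in aECs, and with Klf4 at 265 and 287 CPM.

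In Dach1OE both factors were lower in rECs, while the arterial level of Klf2 was close in the 2 libraries. In rECs Klf2 was at 646 and 305 CPM in Control and Dach1OE (log2 -1.08 [-1.26, -0.91]) and Klf4 at 445 and 218 CPM (log2 -1.03 [-1.24, -0.82]). In aECs Klf2 was at 574 and 614 CPM (log2 0.10 [-0.02, 0.22]) and Klf4 at 353 and 302 CPM (log2 -0.23 [-0.38, -0.06]). Within the Dach1OE library rECs stood at 1.08 times the Klf2 and 1.31 times the Klf4 level of the other ECs, and aECs at 2.66 and 2.04 times. In bmECs Klf2 was at 143 and 136 CPM and Klf4 at 147 and 159 CPM, with intervals of the ratio that hold 0. In pECs Klf4 was higher in Dach1OE, at 97.3 and 142 CPM (log2 0.54 [0.29, 0.80]).

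**Figure D1:**
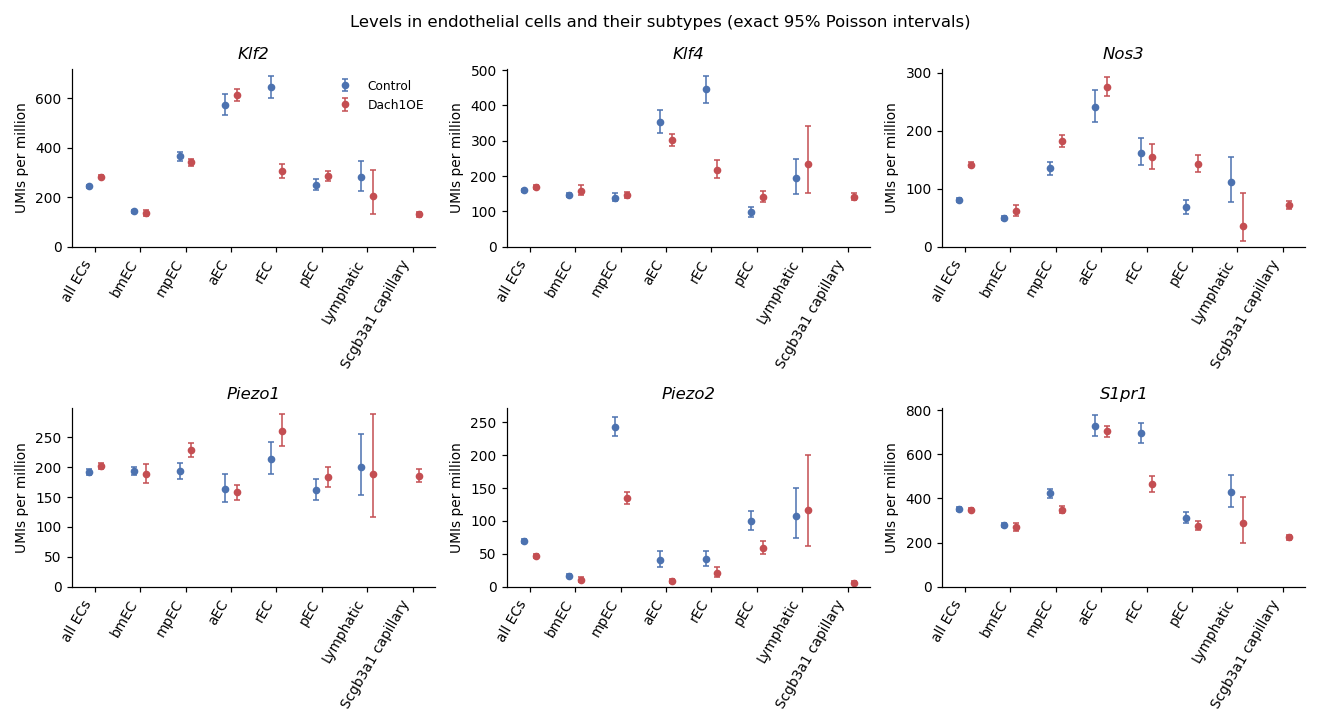
Level of each gene (vertical axes, CPM) in all ECs and in each EC subtype for Control (blue) and Dach1OE (red), with exact 95% Poisson intervals; the 22 Control capillary cells with Scgb3a1 are not drawn. In rECs Klf2 stands at 646 in Control and 305 in Dach1OE, Nos3 peaks in aECs and Piezo2 in mpECs.

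Both sexes had lower Klf2 and Klf4 in Dach1OE rECs. Female rECs had Klf2 at 389 and 215 CPM in Control and Dach1OE, and male rECs at 782 and 419 CPM. The male Dach1OE value lies above the female Control value, so the libraries overlap for Klf2. Klf4 was at 313 and 204 CPM in female and 532 and 283 CPM in male rECs, and here both Dach1OE values lie below both Control values. The smallest of these groups held 74 cells.

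The rECs of the libraries also differed in other genes, and the part of these in the Klf2 and Klf4 values was not tested. All 8 mpEC markers were detected in rECs, summing to 4094 and 7215 CPM, while the 8 rEC markers summed to 5431 and 5245 CPM. Lepr, a leptin receptor known from marrow stromal cells, was at 337 and 90.6 CPM and the stromal gene Adipoq at 12.4 and 6.57 CPM. Car4, a capillary carbonic anhydrase, was at 3.31 and 235 CPM. Klf2 was at 721 and 302 CPM in rECs with a C1qtnf9 UMI, at 565 and 318 CPM in those with no Lepr or Adipoq UMI, and at 648 and 311 CPM in those with no Car4 UMI. The Klf4 log2 ratios of the same subsets were -0.80, -0.84 and -1.03.

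**Figure D2:**
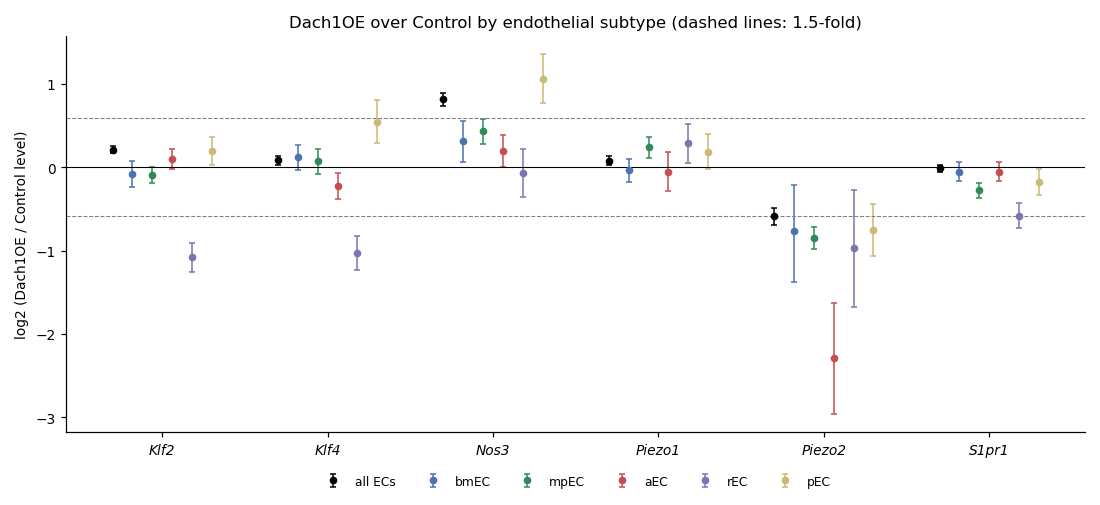
log2 ratio of the Dach1OE to the Control level (vertical axis) of each gene over all ECs (black) and in 5 subtypes (colours), with exact 95% intervals for counting error and dashed lines at 1.5-fold. Klf2 and Klf4 in rECs lie at -1.08 and -1.03, Nos3 in pECs at 1.06, and all 5 subtype points of Piezo2 lie below the lower dashed line.

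Klf2 and Klf4 can also respond to tissue handling, so their levels were set beside 16 immediate-early and dissociation genes. In rECs these genes summed to 2503 and 2104 CPM in Control and Dach1OE. Control rECs below the median share of immediate-early UMIs had Klf2 at 441 CPM and those above at 835 CPM, and in Dach1OE the values were 262 and 339.5 CPM. For Klf4 they were 265 and 612 CPM in Control and 152 and 270.3 CPM in Dach1OE. Among rECs below the median share of all ECs of their library, the log2 ratio of Dach1OE to Control was -0.67 [-0.96, -0.38] for Klf2 and -0.77 [-1.13, -0.40] for Klf4. In Control bmECs Klf2 was at 137 CPM below and 148 CPM above the median, and Klf4 at 102 and 181 CPM.

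**Figure D3:**
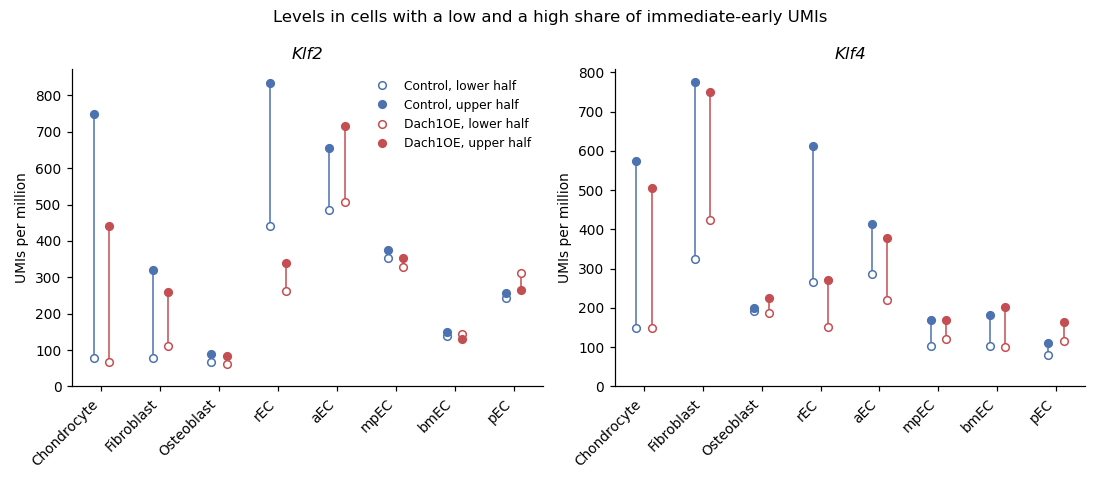
Levels of Klf2 and Klf4 (vertical axes, CPM) in cells with a low (open) and a high (filled) share of immediate-early UMIs, split at the median of each library and set, for Control (blue) and Dach1OE (red). In Control chondrocytes Klf2 is at 77.5 and 750.2, in Control aECs at 486 and 656.

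Klf4 was found more often in cells with Klf2 than in cells without. In Control rECs 47.2% of cells with a Klf2 UMI had a Klf4 UMI, against 21.9% of the rest, and in Dach1OE rECs 28.4% against 13.4%. In aECs the shares were 33.1% against 21.2% in Control and 29.6% against 16.7% in Dach1OE. In bmECs they were 16.4% against 11.9% and 22.6% against 10.9%. All cells compared held 1000 UMIs.

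Over all ECs Klf2 was at 245 and 283 CPM (log2 0.21 [0.17, 0.26]) and Klf4 at 160.0 and 169 CPM (log2 0.08 [0.02, 0.14]). The Klf4 direction turned when every cell was thinned (value below), with a UMI in 13.3% and 12.7% of thinned ECs. The mix of subtypes moved with the values over all ECs. aECs were 4.48% and 12.6% of the ECs of Control and Dach1OE and gave 10.2% and 29.4% of the EC UMIs of Klf2. With Control subtype levels at the mix of Dach1OE, Klf2 would stand log2 0.25 above Control, and the Dach1OE level lay at log2 -0.04 relative to that. With equal weights of 5 subtypes the log2 ratio was -0.23 for Klf2 and -0.29 for Klf4. Female ECs had Klf2 at 237 and 246 CPM and male ECs at 228 and 315 CPM.

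Nos3 was higher in Dach1OE ECs, at 80.2 CPM [77.0, 83.5] in Control and 141 CPM [137, 145] in Dach1OE (log2 0.81 [0.74, 0.89]). A UMI was found in 7.97% and 12.8% of thinned ECs. Female ECs were at 81.9 and 136 CPM and male ECs at 71.9 and 141 CPM, so both Dach1OE values lay above both Control values. Of the 6 genes Nos3 alone was higher past 1.5-fold, where 6.39% of 11105 genes with at least 200 EC UMIs were, and Piezo2 alone was lower past 1.5-fold, where 4.57% were, a call that did not hold in male cells or without the capillary cells with Scgb3a1. The Nos3 call did not hold with equal subtype weights or against the mix of Dach1OE (values below).

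Arteries had the highest Nos3 level. Control aECs were at 242 CPM [215, 270.5], rECs at 162 CPM [140.3, 187], mpECs at 135 CPM, lymphatic cells at 111 CPM, pECs at 68.2 CPM and bmECs at 49.7 CPM. The aEC interval stands apart from that of rECs and the bmEC interval from that of pECs, and the neighbours between overlap. Of the 5 main subtypes pECs differed most between libraries, at 68.2 and 142 CPM (log2 1.06 [0.77, 1.35]). Lymphatic cells were at 111 and 36.0 CPM (log2 -1.62 [-3.58, -0.14]), from 35 and 4 UMIs. Nos3 was also higher in Dach1OE in mpECs, at 135 and 182 CPM (log2 0.43 [0.28, 0.57]), and in bmECs, at 49.7 and 61.7 CPM (log2 0.31 [0.07, 0.55]). The bmEC sexes overlap between libraries, and the bmEC log2 ratio was 0.06 [-0.51, 0.59] in male cells, 0.04 [-0.36, 0.41] in cells low in immediate-early genes and 0.54 [0.38, 0.70] by graph clusters. In aECs it was at 242 and 276 CPM (log2 0.19 [0.01, 0.38]), with 234 and 282 CPM in female and 288 and 280.3 CPM in male cells, which overlap between libraries. In rECs the interval held 0, at 162 and 154 CPM (log2 -0.07 [-0.36, 0.21]). ECs without a clear subtype were at 62.7 and 115 CPM. Female pECs were at 92.1 and 139 CPM and male pECs at 40.5 and 159.9 CPM. In pECs the 10 bmEC markers, none at 0, summed to 2788 and 1223 CPM, and their part in the Nos3 value was not tested.

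The mix of subtypes moved with the Nos3 value over all ECs as well. Control subtype levels at the mix of Dach1OE would give log2 0.35 over Control, and Dach1OE lay log2 0.47 above that. Equal weights of 5 subtypes gave log2 0.31, and both values lie inside 1.5-fold. The capillary cells with Scgb3a1, nearly all from Dach1OE, had Nos3 at 71.2 CPM, and without them the log2 ratio was 0.99. Nos3 was also higher in Dach1OE outside ECs. The log2 ratio was 1.53 [0.82, 2.28] in haematopoietic cells and 1.22 [0.38, 2.15] in smooth muscle cells. Intervals also lay above 0 in pericytes (1.44), metaphyseal stromal cells (1.19), erythroid cells (0.76), osteoblasts (0.65), chondrocytes (0.45) and cells of no clear class (0.66). In marrow stromal cells (0.40), fibroblasts (-0.64) and osteocytes (-1.31) they held 0. The part of EC RNA in these values was not tested.

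**Figure D4:**
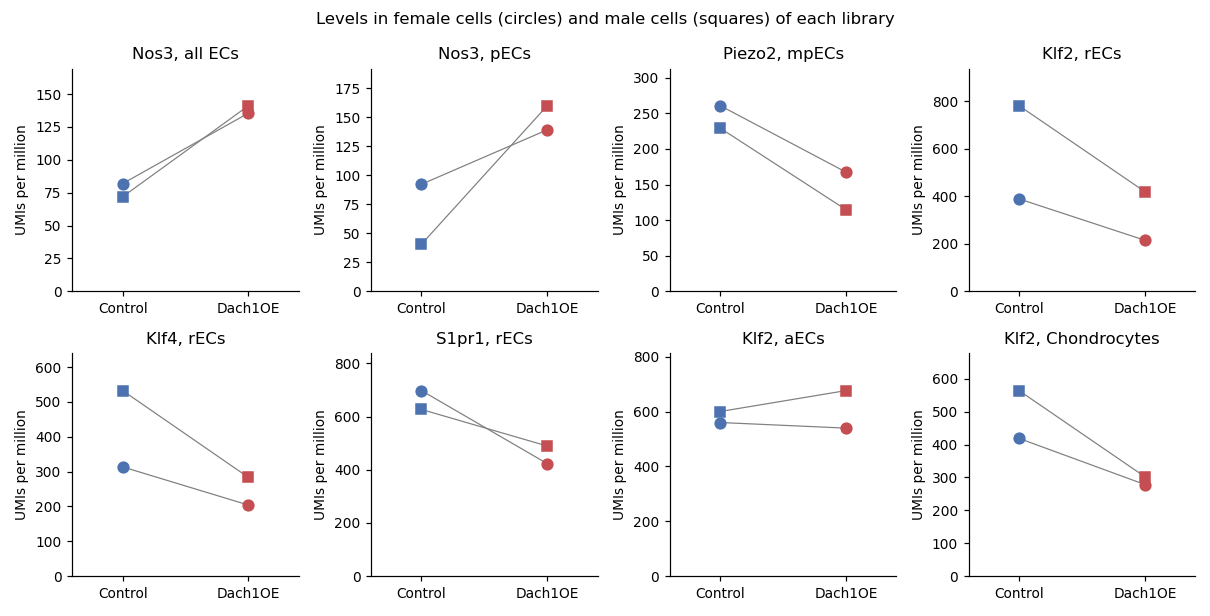
Levels (vertical axes, CPM) in female (circles) and male (squares) cells of Control (blue) and Dach1OE (red) for 8 pairs of gene and set of cells, with lines joining cells of the same sex. Dach1OE lies above Control without overlap for Nos3 in all ECs and pECs and below it for Piezo2 in mpECs, Klf4 and S1pr1 in rECs and Klf2 in chondrocytes, while Klf2 in rECs and aECs overlaps. The pairs drawn were picked. Others not drawn also lack overlap, among them Nos3 in chondrocytes, osteoblasts and marrow stromal cells, where Dach1OE lies above Control.

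S1pr1 was found in all EC subtypes, again with aECs and rECs on top in Control. It was at 729.8 CPM [683, 779] in aECs and 695 CPM [649, 744] in rECs, which overlap, 428 CPM in lymphatic cells, 423 CPM in mpECs, 313 CPM in pECs and 279.9 CPM [271, 289] in bmECs. Over all ECs S1pr1 was at 352 and 349 CPM (log2 -0.01 [-0.05, 0.03]), while each of the 5 main subtypes had a lower value in Dach1OE. Equal weights of these subtypes gave log2 -0.24, and against Control subtype levels at the mix of Dach1OE the log2 ratio was -0.25. The interval held 0 in aECs, at 729.8 and 703 CPM (log2 -0.05 [-0.16, 0.06]), and in bmECs, at 279.9 and 269.7 CPM (log2 -0.05 [-0.17, 0.06]). It lay below 0 in pECs, at 313 and 277 CPM (log2 -0.18 [-0.33, -0.02]), where both Dach1OE sexes stood below Control, in rECs, at 695 and 464 CPM (log2 -0.58 [-0.73, -0.43]), and in mpECs, at 423 and 349 CPM (log2 -0.28 [-0.37, -0.19]). Female rECs were at 698 and 423 CPM and male rECs at 627 and 489 CPM, with no overlap between libraries. Split by sex, S1pr1 was higher in Dach1OE in male bmECs (log2 0.22 [0.01, 0.42]) and female aECs (log2 0.04 [-0.16, 0.24]). The interval held 0 in male mpECs (log2 -0.15 [-0.33, 0.02]) and male pECs (log2 -0.20 [-0.47, 0.08]). In rECs 3 of the 6 genes, Klf2, Klf4 and Piezo2, were lower past 1.5-fold, where 6.96% of 6836 genes were, Piezo2 from 50 and 29 UMIs, and S1pr1 lay just inside that fold.

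Klf2, Klf4, Nos3 and S1pr1 were higher past 1.5-fold in Control aECs than in all other ECs, where 13.2% of genes were, and in Control rECs, where 12.1% were. Against mpECs the rEC levels of Klf2 and Nos3 did not stand apart in every view: female rECs and mpECs were close for Klf2 (above), Nos3 was at 128 and 121 CPM in them, and the Nos3 intervals of rECs and mpECs overlap with the sexes together. In Dach1OE aECs 4 of the 6 genes passed, against 11.2% of genes, and in Dach1OE rECs 0 did, against 9% of genes. The other ECs also differed between libraries. For Nos3 they were at 76.6 CPM in Control and 140 CPM in Dach1OE, while rECs were at 162 and 154 CPM. In Control mpECs 3 passed, against 7.79% of genes. The 6 genes were picked for a known link to flow, with earlier results of these data known, and are no unbiased draw.

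In each main subtype Piezo1 stayed inside 1.5-fold of the other ECs, in both libraries. Control levels ran from 162 CPM [144, 180] in pECs to 214 CPM [189, 242] in rECs. Each Control subtype overlapped its neighbours in the order, but the lowest and the highest did not overlap. Dach1OE levels ran from 158 CPM [146, 171] in aECs to 261 CPM [235, 290] in rECs, at 0.76 and 1.31 times the other ECs. Over all ECs Piezo1 was at 192 and 202 CPM (log2 0.08 [0.02, 0.13]). It was higher in Dach1OE in mpECs, at 194 and 229 CPM (log2 0.24 [0.11, 0.36]), and in rECs, at 214 and 261 CPM (log2 0.29 [0.05, 0.52]). In both subtypes the female and male values of Dach1OE lay above those of Control. The interval spanned both directions in rECs by graph clusters (log2 0.18 [-0.05, 0.42]), in rECs with a C1qtnf9 UMI and in rECs of each sex. In mpECs it did so in male cells (log2 0.19 [-0.05, 0.43]) and in cells low in immediate-early genes (log2 0.12 [-0.05, 0.29]).

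Piezo2 was highest in type H vessels. Control mpECs had 243 CPM [229, 259], 6.21 times the level of the other ECs, and Dach1OE mpECs stood at 6.21 times. They held 52.2% and 63.3% of the EC UMIs of Piezo2 and were 16.1% and 20.8% of the ECs of Control and Dach1OE. In Control lymphatic cells had 108 CPM, pECs 100.3 CPM, rECs 41.4 CPM, aECs 40.7 CPM and bmECs 16.7 CPM [14.6, 19.0]. Lymphatic cells overlap pECs in this order, and rECs overlap aECs. A UMI was found in 20.6% of thinned Control mpECs and 12.1% of Dach1OE mpECs.

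In all 5 main subtypes Piezo2 was lower in Dach1OE past 1.5-fold. It was at 243 and 135 CPM in mpECs (log2 -0.85 [-0.98, -0.72]) and 100.3 and 59.4 CPM in pECs (log2 -0.76 [-1.07, -0.45]). Lower levels were found in rECs, at 41.4 and 21.2 CPM (log2 -0.97 [-1.68, -0.28]), and in bmECs, at 16.7 and 9.78 CPM (log2 -0.77 [-1.38, -0.21]), where Dach1OE had 29 UMIs. When ECs were named by graph clusters instead, bmECs were at 31.4 and 33.4 CPM, with a log2 ratio of 0.09 [-0.15, 0.32], so the direction in bmECs rests on the gate. The aEC value, 40.7 and 8.36 CPM (log2 -2.28 [-2.96, -1.62]), rests on 51 Control and 33 Dach1OE UMIs. Split by sex, the ratio lay inside 1.5-fold in female bmECs (log2 -0.31 [-1.10, 0.42]) and male pECs (log2 -0.47 [-1.09, 0.15]), and the bmEC sexes overlap between libraries. In female rECs and male aECs the interval held 0.

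Female mpECs had Piezo2 at 261 and 167 CPM and male mpECs at 229 and 115 CPM, with no overlap between libraries. Over all ECs it was at 69.8 and 46.4 CPM (log2 -0.59 [-0.69, -0.49]), and there the sexes overlap, at 84.3 and 55.0 CPM in female and 52.9 and 40.6 CPM in male cells. That value moved with the mix of subtypes. It fell inside 1.5-fold without the capillary cells with Scgb3a1 (log2 -0.29), of which 1802 in Dach1OE had 5.79 CPM, and in male cells (log2 -0.38). Control subtype levels at the mix of Dach1OE would stand log2 0.49 over Control, and Dach1OE lay at log2 -1.08 relative to that. In that mix the Control level of the capillary cells, 66.5 CPM, rests on 5 UMIs in 22 cells. Equal weights of 5 subtypes gave log2 -0.92. In pericytes, where Dach1 was at 10.7 and 23.2 CPM, Piezo2 was at 80.4 and 75.8 CPM (log2 -0.09 [-0.43, 0.27]). Lower Dach1OE values were also found outside ECs, in erythroid cells (log2 -0.73 [-1.24, -0.23]) and osteoblasts (log2 -0.66 [-1.06, -0.27]). The same held for chondrocytes (log2 -0.51 [-0.73, -0.29]), fibroblasts (log2 -0.44 [-0.79, -0.09]) and cells of no clear class (log2 -0.52 [-0.81, -0.23]). In the remaining classes the value was below 0 with an interval that held 0. The part of EC RNA in these values was not tested. The mpEC marker Ramp3 was at 280.1 and 152 CPM in mpECs, while all 8 mpEC markers together were at 9931 and 9662 CPM. In aECs the same markers, none at 0, summed to 7707 and 5688 CPM, and their part in the aEC value was not tested.

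Within the Dach1OE library Piezo2 was lower in mpECs with a Dach1 UMI than in those without. Of thinned mpECs the 269 with a Dach1 UMI had 0.0632 Piezo2 UMIs per 1000 and the 1529 without had 0.156 (log2 -1.31 [-2.11, -0.60]). For the other 5 genes in mpECs the interval held 0. For Piezo2 it held 0 in bmECs, aECs, pECs and the capillary cells with Scgb3a1. The intervals were too wide to give a direction in bmECs (log2 0.62 [-4.83, 3.48]) and capillary cells (log2 0.17 [-3.23, 2.78]). The 102 Dach1-positive rECs had no Piezo2 UMI, against 0.0236 UMIs per 1000 in the 382 without Dach1, so counts were low there too. In aECs Klf2 was at 0.783 against 0.596 UMIs per 1000 (log2 0.39 [0.14, 0.64]). In the other subtypes compared the Klf2 interval held 0. The log2 values were 0.30 in bmECs, 0.08 in mpECs, 0.13 in rECs, -0.22 in pECs and -0.18 in the capillary cells. A cell with no Dach1 UMI at this depth is not shown to lack the transgene.

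Outside the vessels, chondrocytes held most of the Klf2 and Klf4 molecules. They gave 63.8% and 55.4% of the Klf2 UMIs of the Control and Dach1OE libraries and 58.7% and 59.4% of the Klf4 UMIs, being 15.4% and 19.3% of the cells. Klf2 was at 467 and 276 CPM in chondrocytes (log2 -0.76 [-0.79, -0.73]) and Klf4 at 395 and 347 CPM (log2 -0.18 [-0.21, -0.15]). Female chondrocytes had Klf2 at 419 and 279 CPM and male ones at 564 and 302 CPM, with no overlap. Dach1 was at 2.51 and 6.35 CPM in chondrocytes.

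The immediate-early genes moved with the chondrocyte values and summed to 8210 and 4890 CPM. Chondrocytes below the median immediate-early share of their library had Klf2 at 77.5 CPM in Control and 66.6 CPM in Dach1OE, and those above at 750.2 and 441 CPM. Split at the joint median share of both libraries, Klf2 was at 64.7 and 69.9 CPM below it, a log2 ratio of 0.11, and at 661 and 495 CPM above it, a log2 ratio of -0.42 [-0.45, -0.39]. For Klf2 the lower level of Dach1OE was found only among the cells above that median. Klf4 was at 131 and 157 CPM below it (log2 0.26 [0.19, 0.34]) and 522 and 549 CPM above it (log2 0.07 [0.04, 0.11]), so neither set of cells showed the lower Klf4 found over all chondrocytes. Cells with a UMI of Col10a1, a collagen of hypertrophic cartilage, had Klf2 at 659 and 387 CPM and those without at 287 and 131 CPM.

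Fibroblasts had the highest Klf4 level of the classes, at 546 and 588 CPM, with Klf2 at 198 and 186 CPM. Of fibroblasts with a Klf2 UMI 60.2% had a Klf4 UMI in Control, against 29.1% of the rest, and 51.5% against 32.3% in Dach1OE. Osteocytes had Klf4 at 251 and 289 CPM and osteoblasts at 196 and 206 CPM. S1pr1 was at 281 and 267 CPM in marrow stromal cells and 329 and 270.0 CPM in metaphyseal stromal cells, against 10.4 and 10.7 CPM in chondrocytes. Piezo1 was found in fibroblasts (134 and 139.7 CPM), osteocytes (99.7 and 109.6 CPM), pericytes (93.6 and 107 CPM) and erythroid cells (86.3 and 89.1 CPM). Piezo2 was highest outside ECs in pericytes, followed by fibroblasts (54.9 and 40.5 CPM).

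Nos3 outside ECs was low. Over 10 other classes, glial cells not included, it ran from 2.43% to 11.5% of the EC level of the same library, beside 2.49% to 9.34% for the EC marker Cdh5 and 2.85% to 11.3% for Egfl7, which those classes should lack. Class by class it could exceed these markers: in Control fibroblasts Nos3 was at 11.3% of the EC level against 5.91% for Cdh5 and 5.42% for Egfl7, and in Control osteocytes, from 8 UMIs, at 10.6% against 3.40% and 4.61%. Scrublet called 1727 of 26466 and 1936 of 29317 cells of Control and Dach1OE doublets over all classes, and their part in these values was not tested. In their highest class the other genes were at 191% and 97.4% of the EC level in Control and Dach1OE (Klf2, chondrocytes), 341% and 347% (Klf4, fibroblasts), 69.9% and 69.1% (Piezo1, fibroblasts), 115% and 163% (Piezo2, pericytes) and 93.4% and 77.4% (S1pr1, metaphyseal stromal cells). S1pr1 in chondrocytes (2.95%) and Klf2 in erythroid cells (3.47%) were within the range of the markers.

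**Figure D5:**
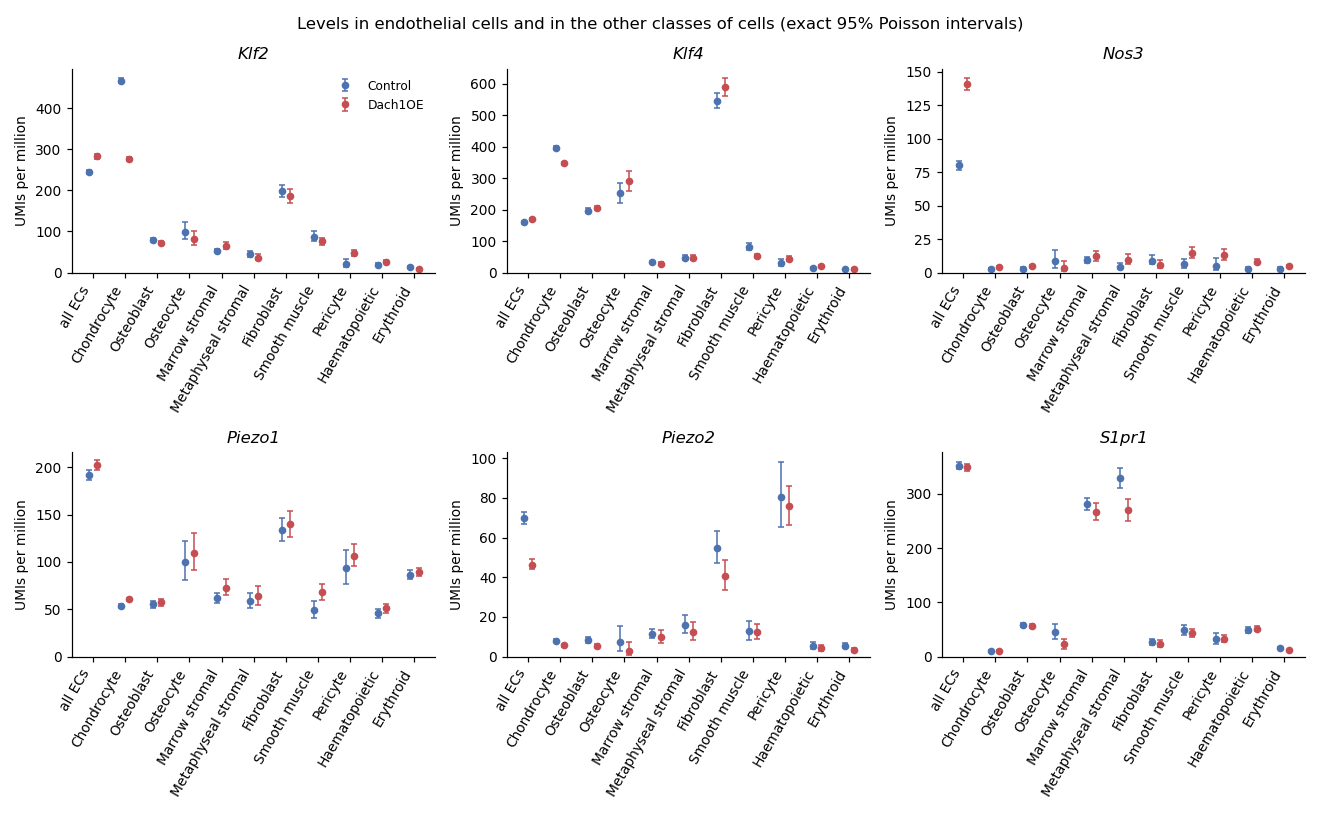
Level of each gene (vertical axes, CPM) in all ECs and 10 other classes for Control (blue) and Dach1OE (red), with exact 95% Poisson intervals. Klf2 in chondrocytes is at 467 in Control and 276 in Dach1OE, Klf4 is highest in fibroblasts, and Nos3 is near 0 outside ECs.

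Other genes of the flow pathway were counted over all ECs by lists. Of all 11105 genes tested there 6.39% were higher and 4.57% lower past 1.5-fold, with a median of log2 0.04, and each count below stands beside these shares. Of 22 upstream genes, from junctional sensors to the MEF2 factors, 2 were higher past 1.5-fold and 0 lower, with a median of 0.02. They were Trpv4, a calcium channel, at 7.74 and 21.2 CPM, and Heg1, a junctional receptor of the CCM complex, at 161 and 243 CPM. Trpv4 was at 52.6 and 99.3 CPM in aECs and 46.4 and 36.5 CPM in rECs, and Heg1 at 556 and 536 CPM in aECs.

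Of 16 KLF targets and other flow-sensitive genes 14 had enough UMIs, with 1 higher, 3 lower and a median of 0.09. Edn1, the vasoconstrictor endothelin-1, was at 21.2 and 40.5 CPM over all ECs but at 212 and 135 CPM in rECs. Hmox1, haem oxygenase, was at 119.9 and 55.5 CPM, and Thbd, the anticoagulant thrombomodulin, at 616 and 391 CPM. Within bmECs both lay inside 1.5-fold, Hmox1 at 155 and 121 CPM and Thbd at 836 and 697 CPM, while in aECs they were at 43.1 and 11.7 CPM and 203 and 118 CPM. Vcam1, a leukocyte adhesion protein and here a bmEC marker, was at 995 and 480.0 CPM over all ECs and 1589 and 1437 CPM within bmECs, which were 43.5% and 10.4% of the ECs.

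Of 11 genes of caveolae, the membrane pits that hold Nos3, and of other Nos3 partners 10 had enough UMIs, with 2 higher, 1 lower and a median of -0.01. The coat protein Cav1, an rEC marker here, was at 211 and 480.1 CPM, Cavin1 at 275 and 426 CPM and Cavin2 at 713 and 418 CPM. Within subtypes Cav1 was at 285 and 317 CPM in mpECs, 1295 and 1624 CPM in aECs and 1460 and 1884 CPM in rECs. In rECs Cavin2 was at 1522 and 856 CPM. Of 11 genes of the sphingosine-1-phosphate system 7 had enough UMIs and 0 passed in either direction (median 0.06). Spns2, the exporter of the S1pr1 ligand, was at 143 and 169 CPM and the lyase Sgpl1 at 28.2 and 23.7 CPM. Of 15 other KLF genes 9 had enough UMIs and 0 passed (median 0.05), with Klf7 at 181 and 181 CPM and Klf6 at 169.6 and 182 CPM. Of the 16 immediate-early genes 3 were higher and 0 lower (median 0.09): Nr4a1 at 29.2 and 58.1 CPM, Fos at 194 and 305 CPM and Ier2 at 63.3 and 97.4 CPM.

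The genes most like each of the 6 were sought among 5170 genes over 11 levels, those of EC subtypes with at least 100 cells in a library. The points share 2 libraries, so the correlations only describe the pattern. Klf2 was most like Rab11fip5 (Pearson r 0.97), Dhh (0.97) and Kif5b (0.96), and Klf4 like Kctd10 (0.96), Rras (0.95) and Utrn (0.94). Nos3 was most like Scd2, Sox7 and Tubb2a (0.97 each), and S1pr1 like Epb41l4a (0.97), Met (0.96) and Parvb (0.96). Piezo2 was most like Lrrc55 (0.96), Fkbp1a (0.95) and Arpc3 (0.95), and Piezo1 like Wasl (0.88), Ehmt1 (0.86) and Nsa2 (0.84). Among the 6 genes Klf2 had r 0.92 with S1pr1, 0.90 with Nos3 and 0.72 with Klf4, while Piezo1 and Piezo2 had r from -0.25 to 0.36 with every other member.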

How the data were processed

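The authors deposited, for each library, a table of read and UMI counts per cell and gene. Per the file headers it was made by the BD Rhapsody WTA Analysis Pipeline 1.11 with GENCODE vM19 on GRCm38, with intronic reads counted and refined cell calling on. The error-adjusted UMI counts were used, which are not normalized.

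Cells with 500 to 6000 genes and under 25% mitochondrial UMIs were kept. Each cell was scored for marker panels (mean scaled log values, limited to 4 SD) and took the leading panel if its score was at least 0.25, its lead at least 0.25 and 3 markers were detected (EC subtypes: 0.2, 0.1 and 2 markers; lymphatic cells also needed Prox1). These limits were settled after the data were seen. Scrublet doublets (1727 of 26466 and 1936 of 29317 kept cells of Control and Dach1OE, among them 0.542% and 0.748% of the ECs) stayed in and were left out as an alternative. Female cells had an Xist UMI and no UMI of 4 Y-linked genes, male cells the reverse, and cells with neither or both were left out of these values. That each sex is a single mouse is not stated.

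UMIs were summed per library and set of cells. Intervals are exact at 95% (Poisson for levels, binomial for ratios and shares, scipy 1.17.1) and cover counting error only. No test between groups was run, since each has 1 library. The calculation was tested on simulated counts. From each list up to 4 genes past 1.5-fold with at least 200 UMIs were named, or else the 2 with most UMIs, and for each member the 3 genes with the highest r of log2(CPM + 1) among those reaching 50 CPM. The 6 genes, lists and panels were chosen with earlier results of these data known, and the Scgb3a1 panel came from that earlier work. Alternatives were raw UMIs, thinning, other filters on cells, a stricter gate, graph clusters (scanpy 1.11.5), each sex, cells low in immediate-early genes, TMM scaling (edgeR 4.0.16) and other mixes of subtypes.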

Additional observations from a re-analysis of the deposited data

Results flagged for a closer look

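S1pr1 over all ECs went opposite ways in the sexes: the log2 ratio of Dach1OE to Control was -0.12 in female cells (331 and 304 CPM) and 0.10 in male cells (352 and 378 CPM). The difference between the sexes was not tested. Klf2 was lower in Dach1OE rECs (log2 -1.08) and higher in pECs (0.19). Male pECs had Klf2 at 218 and 364 CPM and female pECs at 256 and 248 CPM, and graph clusters gave log2 0.04 [-0.14, 0.22]. Klf4 was lower in rECs (-1.03) and higher in pECs (0.54). With 1 library per group these differences between subtypes were not tested.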

How the results depend on the processing

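No paired analysis was possible because each group has 1 library, and for the same reason none could be left out. Intervals cover counting error only, and low counts limit Piezo2 in aECs, rECs and Dach1OE bmECs and all genes in lymphatic cells. Of the values over all ECs and of Control aECs or mpECs against other ECs, 99 stayed inside the main interval and 49 moved. The 49 include gene counts at other minimums, which have no interval and were called moved past 1.5-fold. Of the remaining values, among them the ratios within subtypes, 151 stayed, 55 moved and 2 reversed. Over all ECs thinning gave log2 ratios of 0.11 for Klf2, -0.0736 for Klf4, 0.73 for Nos3 and -0.0694 for S1pr1. Female cells alone gave 0.0523 for Klf2, 0.73 for Nos3, 0.13 for Piezo1 and -0.12 for S1pr1, and male cells alone 0.47 for Klf2, 0.27 for Klf4, 0.97 for Nos3, -0.38 for Piezo2 and 0.10 for S1pr1. Equal weights of 5 subtypes gave -0.23 for Klf2, -0.29 for Klf4, 0.31 for Nos3, 0.14 for Piezo1, -0.92 for Piezo2 and -0.24 for S1pr1. Without the capillary cells with Scgb3a1 the ratios were 0.40 for Klf2, 0.14 for Klf4, 0.99 for Nos3, -0.29 for Piezo2 and 0.12 for S1pr1. Against Control subtype levels at the mix of Dach1OE, the ratios were -0.0432 for Klf2, 0.47 for Nos3, -1.08 for Piezo2 and -0.25 for S1pr1. This alternative was chosen after seeing the data. In it 22 Control cells stand for the Scgb3a1 subtype, with 7 UMIs of Klf2, 3 of Nos3, 5 of Piezo2 and 25 of S1pr1. Cells low in immediate-early genes gave 0.0029 for Piezo1 and 0.0327 for S1pr1. The log2 ratio of Control aECs to other ECs became 1.48 (thinned), 1.45 (graph clusters), 1.47 (male) and 1.15 (low immediate-early) for Klf2, 0.96 (female) for Klf4, 2.14 (male) and 1.39 (low immediate-early) for Nos3, and 1.24 (thinned), 0.95 (female) and 1.37 (male) for S1pr1. For Piezo2 in Control mpECs it became 2.79 (thinned), 2.77 (graph clusters), 2.39 (female), 3.02 (male) and 2.28 (low immediate-early). Genes past 1.5-fold over all ECs numbered 710 higher and 507 lower with at least 200 UMIs, 1096 and 874 with at least 50, and 4409 and 5693 with no minimum. For ratios of Dach1OE to Control within the 5 main subtypes the alternatives were each sex, cells low in immediate-early genes and graph clusters. Some subsets of rECs and chondrocytes, and graph clusters for chondrocytes, were added, and other classes were split by sex only. Raw UMIs, thinning, other filters, a stricter gate, leaving out doublets and TMM scaling were not tried on these ratios. Within subtypes and classes, 13 alternatives turned the direction of a value whose interval lay off 0. Of the values past 1.5-fold these were Piezo2 in bmECs by graph clusters (0.0892) and Klf2 in chondrocytes below the joint median immediate-early share (0.11), both chosen after seeing the data, and Nos3 in male pericytes (-0.077). Inside 1.5-fold they were Klf4 in chondrocytes below and above that median (0.26 and 0.07), Klf2 in female pECs (-0.04) and male mpECs (0.08), Nos3 in male aECs (-0.04), Klf2 and Klf4 in male osteoblasts (0.024 and -0.12), Klf4 in female fibroblasts (-0.000298), Piezo2 in male fibroblasts (0.87) and S1pr1 in male metaphyseal stromal cells (0.13). Another 35 turned a value whose interval held 0, among them Klf4 in mpECs by graph clusters (-0.19 [-0.33, -0.05]) and S1pr1 in male bmECs (0.22 [0.01, 0.42]). The cause was not tested.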

Other observations

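Smooth muscle cells had Klf4 at 82.6 and 52.2 CPM (log2 -0.66 [-0.96, -0.37]), with 77.2 and 62.5 CPM in female and 89.5 and 60.3 CPM in male cells. The immediate-early genes summed to 2417 and 1729 CPM there, and their part in the Klf4 value was not tested. Pericytes had Klf2 at 22.2 and 47.9 CPM (from 27 and 151 UMIs), and at 24.7 and 58.9 CPM in female cells. The EC marker Cdh5 was at 96.0 and 127 CPM in pericytes, and its part in the Klf2 value was not tested.

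The capillary cells with Scgb3a1 in Dach1OE had Klf2 at 131 CPM, S1pr1 at 223 CPM and Piezo2 at 5.79 CPM, against 136, 269.7 and 9.78 CPM in bmECs and 614, 703 and 8.36 CPM in aECs of that library. In Dach1OE bmECs Klf4 was at 0.377 UMIs per 1000 in the 61 thinned cells with a Dach1 UMI and 0.132 in the 846 without (log2 1.51 [0.79, 2.17]). In the other subtypes compared the interval spanned both directions. The log2 values were 0.11 in mpECs, 0.10 in aECs, 0.10 in rECs, 0.37 in capillary cells and -0.83 in pECs. Klf4 in Dach1OE bmECs was at 100 and 202 CPM below and above the median immediate-early share, and the part of this was not tested.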
